A study of Mus musculus with 12 samples.

Results

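The contrast described here set the chromatin binding of the transcription factor NKX2-1 against that of the zinc finger protein PRDM16, gene by gene, in mouse fetal lung epithelium. It used 5 of the 12 samples of the series, 3 NKX2-1 and 2 PRDM16 libraries, each deposited as a list of peaks. Each peak on chromosomes 1 to 19 was linked to the protein-coding gene with the nearest gene end within 50 kb. Within a library, all peaks were ranked by the authors' fold enrichment as percentiles, where 100 is the strongest peak, and a gene took the rank of its best peak, or 0 without a linked peak. Of 20665 protein-coding genes on these chromosomes, 19611 had a linked peak in at least 1 of the 5 libraries, and the 18057 with a peak in at least 2 were compared. Of these, 10297 had a peak in all 5. Genes were described as high in one factor and low in the other when the mean rank was at least 75 in the first and at most 25 in the second. That rule chose 48 genes high in NKX2-1 and 324 high in PRDM16, so their rank differences are descriptions and carry no test of the choice.

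CUT&RUN was used, in which an antibody tethers a nuclease that releases the DNA around a bound protein. All libraries came from EpCAM-positive epithelial cells of pooled lungs of wild-type C57Bl6 mouse fetuses at E17.5, with 100000 cells per reaction. The NKX2-1 libraries all used a rabbit antibody, while PRDM16 replicate 1 used a rabbit and PRDM16 replicate 2 a sheep antibody. No mutant was among these libraries, and the cell types within the EpCAM-positive fraction were not separated. The labels do not say whether replicates came from separate pools of lungs, so any p-value measures only the spread between these libraries, which may be technical.

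NKX2-1 is a homeodomain protein needed to form and maintain lung epithelium, where it activates surfactant genes and other genes of alveolar cells. Alveolar type 1 (AT1) cells form the thin gas exchange surface, and alveolar type 2 (AT2) cells make surfactant. PRDM16 carries zinc fingers and a PR domain, works with corepressors and histone-modifying enzymes, and is best known from brown fat and haematopoietic stem cells. PRDM3, encoded by Mecom, is its close relative.

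The promoters below, picked after their values were seen, are shown because deposited peaks of PRDM16, of NKX2-1 or of both overlapped them. They are the 250 bases before the start site in RefSeq (GRCm38.p6), printed 5′ to 3′ on the strand of the gene. Capitals mark the 21 bases around the summit of a deposited peak. Mmab (minus strand, chr5:114444028-114444277) holds the PRDM16 summits of replicates 1 and 2, 146 and 101 bases before the start. Ddx41 (minus strand, chr13:55536659-55536908) holds them 14 and 4 bases before it, in stretches that run into each other. In Aqp5 (plus strand, chr15:99590778-99591027) the PRDM16 summits lay 105 and 114 bases before the start, again in joined stretches, and the NKX2-1 replicate 1 summit 62 bases before it, in the capitals nearer the start. Bet1 (minus strand, chr6:4086931-4087180) and Zmpste24 (minus strand, chr4:121098211-121098460) were overlapped by NKX2-1 replicate 1 peaks whose summits lay outside the window, so they have no capitals.
Mmab: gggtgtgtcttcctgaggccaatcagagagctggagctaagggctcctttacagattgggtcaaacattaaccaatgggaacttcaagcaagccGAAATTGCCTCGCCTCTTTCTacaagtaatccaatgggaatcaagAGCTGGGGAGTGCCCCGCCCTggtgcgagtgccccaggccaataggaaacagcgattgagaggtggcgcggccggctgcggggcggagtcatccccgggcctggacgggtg
Ddx41: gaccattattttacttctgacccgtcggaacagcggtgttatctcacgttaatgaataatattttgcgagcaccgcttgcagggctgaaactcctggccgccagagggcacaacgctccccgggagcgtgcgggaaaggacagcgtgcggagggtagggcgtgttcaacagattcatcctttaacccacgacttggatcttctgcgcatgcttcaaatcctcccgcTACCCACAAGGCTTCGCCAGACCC
Aqp5: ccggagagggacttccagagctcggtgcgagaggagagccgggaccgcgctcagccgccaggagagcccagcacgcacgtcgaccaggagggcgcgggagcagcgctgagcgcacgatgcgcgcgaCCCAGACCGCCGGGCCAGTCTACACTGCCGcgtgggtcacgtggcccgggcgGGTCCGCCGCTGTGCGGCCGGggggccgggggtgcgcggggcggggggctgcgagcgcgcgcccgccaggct
Bet1: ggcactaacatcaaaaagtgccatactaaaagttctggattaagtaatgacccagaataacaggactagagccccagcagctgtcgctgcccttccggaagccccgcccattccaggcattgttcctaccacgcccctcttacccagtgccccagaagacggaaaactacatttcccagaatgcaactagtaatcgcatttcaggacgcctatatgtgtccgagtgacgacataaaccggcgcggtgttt
Zmpste24: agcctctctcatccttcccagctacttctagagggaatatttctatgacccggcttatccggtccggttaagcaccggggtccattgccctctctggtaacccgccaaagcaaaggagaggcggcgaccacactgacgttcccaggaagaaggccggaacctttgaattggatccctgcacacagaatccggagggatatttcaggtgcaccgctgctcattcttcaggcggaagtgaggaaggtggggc

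The authors' fold enrichment of the peak over the Mmab window was 10.4 and 6.09 in PRDM16 replicates 1 and 2 and 3.38 in NKX2-1 replicate 1. Over the Ddx41 window it was 7.01 and 7.99 in PRDM16 and 2.32 and 2.19 in NKX2-1 replicates 1 and 2. The Aqp5 window had 4.79 and 4.20 in PRDM16 and 2.84 in NKX2-1 replicate 1, at ranks of 77.4, 74.1 and 19.2, and stronger peaks elsewhere gave this gene its ranks. The Bet1 and Zmpste24 windows had 13.4 and 5.97 in NKX2-1 replicate 1, no peak of the other NKX2-1 libraries and no PRDM16 peak. The motif CACTNNAG, of NKX2-1 type, and the motifs ACAAGATA and GAAGATGAG, described for the zinc fingers of the PRDM3 and PRDM16 family, were searched on both strands. None of the 3 was found in these 5 windows, where N is any base. Over all 20085 promoter windows of 300 bases in the table, 14.9%, 0.483% and 0.393% held them. Among genes with a window, CACTNNAG stood in 8 of 39 genes high in NKX2-1 (20.5%), 40 of 237 high in PRDM16 (16.9%) and 17.1% of all compared.

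The 5 libraries differed in length and strength. Peaks on chromosomes 1 to 19 numbered 51586, 60419 and 76036 in NKX2-1 and 108677 and 77421 in PRDM16. A −log10 q of at least 2 was reached by 55.7%, 4.72% and 6.11% of NKX2-1 peaks and by 32.5% and 39.3% of PRDM16 peaks, so most peaks of NKX2-1 replicates 2 and 3 were of low confidence. Many of these weak peaks share a fold enrichment and thus a rank. Read depth is unknown. Across the 18057 genes, the ranks of NKX2-1 replicate 1 had a Spearman rho of 0.46 and 0.51 with its own replicates 2 and 3 and of 0.68 and 0.59 with PRDM16 replicates 1 and 2. The 2 PRDM16 libraries had a rho of 0.61 with each other, below the 0.68 of NKX2-1 replicate 1 with PRDM16 replicate 1. NKX2-1 replicates 2 and 3 had 0.47 with each other. These correlations are across genes, which are not independent replicates. In the peak names, NKX2-1 replicate 1 and both PRDM16 libraries carry 1 letter code and NKX2-1 replicates 2 and 3 another, so replicate 1 alone was also set against PRDM16. The sources used here do not say what the codes mark. H3K4me3, a mark of active promoters, lay within 1 kb of an end of Epcam, Cdh1, Krt8, Krt18, Sftpc, Sftpb, Ager and Hopx in 3 of 3 libraries, of Col1a1 in 2, of Cdh5 in 1 and of Pdgfra, Pecam1, Ptprc and Cd68 in 0.

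Most genes that ranked high in one factor ranked high in the other, as the plot of mean ranks shows. With limma on the ranks, 0 genes (0%) passed an adjusted p of 0.05 in either direction, and the smallest adjusted p was 0.129. At an unadjusted p under 0.05, 214 genes (1.19%) were higher in NKX2-1 and 986 (5.46%) higher in PRDM16. In simulated data with as many genes, the deviations from the group means were shuffled among genes. Planted differences of 30 and of 60 rank points were called in 0 of 100 genes each, so the test made no calls at these sizes. The shuffling did not keep the link between a gene's rank and its spread. The shuffled deviations also summed to 0 within each group, so the simulated differences carried no error, unlike those of the real libraries. The simulation thus does not measure how often real differences of these sizes would be called. Larger differences were not planted. A count that needs no model is given beside it, of genes whose libraries did not overlap between the factors. With 3 against 2 libraries an exact permutation test cannot give a p under 0.2. Such genes can therefore be common without a difference between the factors. With 1 library against 2 they can be more common still. In 1014 genes, 5.62% of those compared, all 3 NKX2-1 libraries ranked above both PRDM16 libraries. In 3410 genes, 18.9%, both PRDM16 libraries ranked above all 3 NKX2-1 libraries. Of the genes without overlap, 22.9% thus had NKX2-1 above. That split changed with the setting. With the strongest 50000 peaks of every library, 1893 genes (11.5% of 16461) had NKX2-1 above and 1845 (11.2%) PRDM16 above, a share of 50.6%. With full lists and the genes ranked again within each library, it was 2528 (14%) and 2284 (12.6%), a share of 52.5%. The cause of these shifts was not tested. The median difference over all genes, NKX2-1 minus PRDM16, was -5.24 rank points, and 0.63 with lists of equal length. Counts in a gene group are therefore given below with full lists, where 5.62% and 18.9% of all genes had NKX2-1 and PRDM16 above, and with lists of equal length, where 11.5% and 11.2% did.

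**Figure D1:**
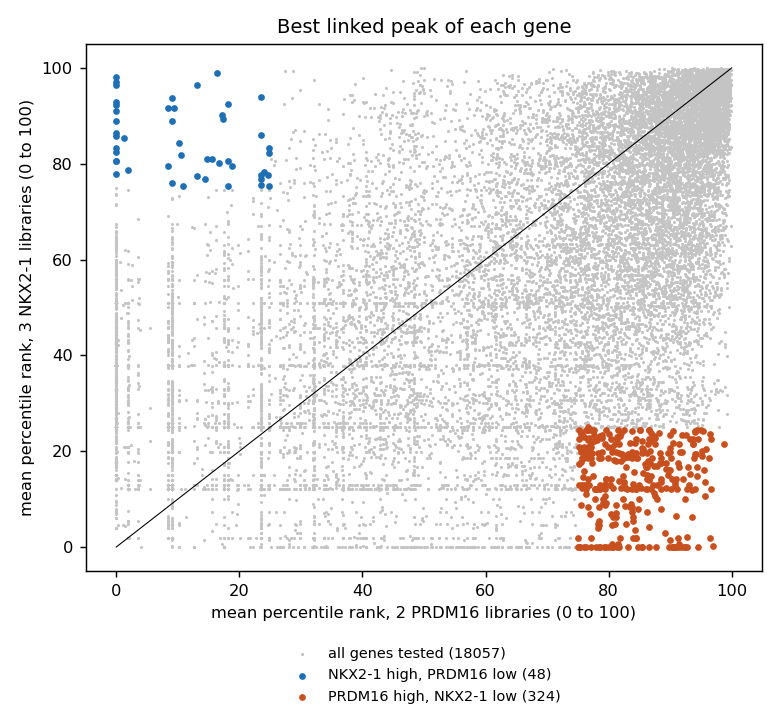
Mean percentile rank of the best linked peak in the 3 NKX2-1 libraries (vertical axis) against the 2 PRDM16 libraries (horizontal axis) for 18057 genes, with the line of equal ranks. Most points crowd into the upper right corner, where both factors rank high. The 48 genes high in NKX2-1 alone (blue) and the 324 high in PRDM16 alone (orange) lie in opposite corners.

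The genes of the factors themselves ranked high in both. Nkx2-1 ranked 83.0, 96.6 and 97.6 in the NKX2-1 libraries and 95.1 and 84.0 in PRDM16, and the groups overlapped. Mecom ranked 98.4, 95.0 and 96.9 against 99.4 and 99.2. Prdm16 ranked 86.5, 77.4 and 84.9 against 99.1 and 98.0, a difference of -15.6 (SE 8.20). At Mecom and Prdm16 both PRDM16 libraries lay above every NKX2-1 library, with a difference of -2.57 at Mecom.

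Genes of alveolar cells ranked high in both, with PRDM16 a little higher at many. All 24 AT1 genes listed had a linked peak in every library. Their median ranks were 91.5, 90.8 and 93.7 in NKX2-1 and 96.9 and 95.7 in PRDM16. Over all genes the medians were 70.5, 68.0 and 75.1 in NKX2-1 and 85.3 and 73.3 in PRDM16. Most peaks of NKX2-1 replicates 2 and 3 were of low confidence, so a high rank there need not mean strong binding. None of the AT1 genes, and none of the 21 AT2 genes compared, fell in either high and low class. In 9 of the 24 AT1 genes (37.5%, against 18.9% of all genes) PRDM16 ranked above without overlap, and in 1, Sema3a, a secreted guidance signal, NKX2-1 did. With lists of equal length PRDM16 was above in 7 of 24, against 11.2% of all genes. The 7, also without overlap when neighbouring gene ends share a peak, were Aqp5, Cldn18, Clic5, Gprc5a, Hopx, Scnn1g and Spock2.

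Aqp5, the water channel of AT1 cells, had the lowest difference of that list. Its ranks were 90.4, 39.1 and 36.2 in NKX2-1 and 99.9 and 98.5 in PRDM16. Both PRDM16 libraries were thus near the top, while the NKX2-1 libraries disagreed, replicate 1 being high and replicates 2 and 3 low. The difference was -44.0 (SE 19.8, limma adjusted p = 0.804), and -8.86 with NKX2-1 replicate 1 alone. Hopx, a homeodomain cofactor that marks AT1 cells, ranked 93.2, 95.7 and 95.4 against 97.7 and 99.9, a difference of -3.99, smaller than its SE of 7.73. Cldn18, a tight junction claudin, ranked 92.4, 96.6 and 98.4 against 98.9 and 99.4. At Hopx and Cldn18 the groups did not overlap although every library ranked them high.

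In the AT2 list, PRDM16 ranked above without overlap in 6 of 21 genes, or 28.6% against 18.9% of all genes, and in 5 of 21 with lists of equal length, against 11.2%. NKX2-1 was above in 0 under both. The 5 were Fabp5, Lpcat1, Scd1, Sftpb and Sftpd. Sftpb, a surfactant protein, ranked 97.2, 96.6 and 75.1 in NKX2-1 and 99.4 and 99.4 in PRDM16. Sftpd, a collectin of the surfactant, ranked 81.8, 0 and 75.1 against 99.2 and 96.6. The gap at Sftpd thus includes 1 NKX2-1 library without a linked peak, and its difference of -45.6 has an SE of 28.3.

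The lowest difference in the AT2 list belonged to Sftpc, which encodes surfactant protein C, at -48.6 (SE 30.0). It ranked 18.2, 0 and 90.4 in NKX2-1 and 92.5 and 77.0 in PRDM16. Another gene end lies 225 bases away. When a peak counted for every gene with an end within 5 kb, the ranks of Sftpc became 42.6, 92.3 and 90.4 against 92.5 and 99.5. Ager, the AT1 gene of the highest difference (30.5, SE 33.2), behaved likewise, with a neighbouring end 60 bases away. Its ranks of 26.3, 96.6 and 90.4 against 78.0 and 3.11 became 76.8, 97.9 and 90.4 against 97.9 and 94.1, and the sign of the difference turned to -7.66. With shared ends the PRDM16 libraries lay just above all NKX2-1 libraries at Sftpc, and the groups overlapped at Ager.

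Transcription factors of lung epithelium had the same high ranks, with medians of 87.6, 92.3 and 95.4 in NKX2-1 and 95.8 and 96.8 in PRDM16. PRDM16 ranked above without overlap in 14 of 27 (51.9%, against 18.9% of all genes), but with lists of equal length in 4 of 27, near the 11.2% of all genes. Those 4 were Etv4, Ehf, Irx3 and Nfix, and 1 factor, Tfcp2l1, had NKX2-1 above in both. Etv4, an ETS factor downstream of FGF signalling, ranked 75.6, 18.3 and 64.8 against 96.7 and 99.6, with a difference of -45.3 (SE 19.8). Ehf, an epithelial ETS factor, ranked 64.5, 62.5 and 75.1 against 96.9 and 93.7. The NKX2-1 libraries were close together at Ehf and all lay below both PRDM16 libraries. Tfcp2l1, a grainyhead-like factor, ranked 95.5, 88.9 and 97.6 against 86.8 and 87.7, a difference of 6.77 (SE 8.13).

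Among 24 genes of surfactant lipid synthesis, NKX2-1 ranked above without overlap in Chpt1 and Hmgcs1 and PRDM16 in 8 genes (33.3%, against 18.9% of all genes). These counts were 3 and 4 with lists of equal length, against 11.5% and 11.2% of all genes. Hmgcs1, an enzyme early in cholesterol synthesis, ranked 78.7, 88.1 and 98.1 against 72.3 and 62.3. Chpt1, which makes phosphatidylcholine, ranked 93.8, 99.7 and 97.0 against 90.8 and 74.4. Gpam, which starts glycerolipid synthesis, was on the other side, with 75.6, 77.4 and 75.1 against 96.6 and 98.3. Fads2, a fatty acid desaturase, ranked 80.4, 88.1 and 85.8 against 96.2 and 95.7. Elovl1 had the lowest difference of the list, -51.6 (SE 20.4), but it shrank to -5.56 when ends 52 bases apart shared their peaks.

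The list of PRDM genes and their partners had members on both sides, and its shares lay near those of all genes with lists of equal length. NKX2-1 ranked above without overlap in Hdac2, Bmi1 and Prdm15 (13.0%, against 5.62%), and PRDM16 in Kdm1a, Rbbp4, Prdm16 and Mecom (17.4%, against 18.9%). The equal lists gave 3 and 3 of 23, against 11.5% and 11.2% of all genes. Hdac2, a histone deacetylase, ranked 94.2, 98.8 and 99.5 in NKX2-1 and 77.5 and 28.0 in PRDM16, a difference of 44.7 (SE 16.8, limma adjusted p = 0.737). The PRDM16 libraries themselves lay far apart at Hdac2. Kdm1a, a histone demethylase of corepressor complexes, ranked 48.1, 39.1 and 59.4 against 94.3 and 86.8, a difference of -41.7 (SE 10.1).

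In the signalling, Hippo and junction lists, NKX2-1 ranked above in 1 gene each, of 37, 19 and 25, which is at or under the 5.62% of all genes. With lists of equal length these counts were 3 of 37, 3 of 18 and 1 of 25, against 11.5%. Jag1, a Notch ligand, ranked 99.3, 98.8 and 98.3 against 94.0 and 97.8. Yap1, the Hippo effector, ranked 83.0, 98.3 and 95.4 against 71.3 and 72.7. Cldn7, an epithelial claudin, ranked 95.7, 96.6 and 96.9 against 80.3 and 61.5, a difference of 25.5 (SE 9.51). All 3 also had NKX2-1 above with lists of equal length and with shared ends. Among 37 genes of Notch, Wnt, FGF, BMP, SHH and TGF-beta signalling, PRDM16 ranked above in 10 (27.0%, against 18.9% of all genes). It was above in 5 with lists of equal length, near the 11.2% of all genes: Id1, Lrp5, Shh, Tgfbr2 and Wnt7b. Wnt7b, an epithelial Wnt ligand, ranked 89.6, 92.3 and 87.5 against 99.7 and 97.8. Lrp5, a Wnt coreceptor, ranked 67.4, 77.4 and 75.1 against 97.1 and 92.2. In the Hippo list PRDM16 was above in 4 of 19 genes (21.1%, near the 18.9% of all genes), and in 2 of 18 with lists of equal length. Of 25 junction and keratin genes it was above in 7 (28.0%), and in 6 with lists of equal length, against 11.2%.

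**Figure D2:**
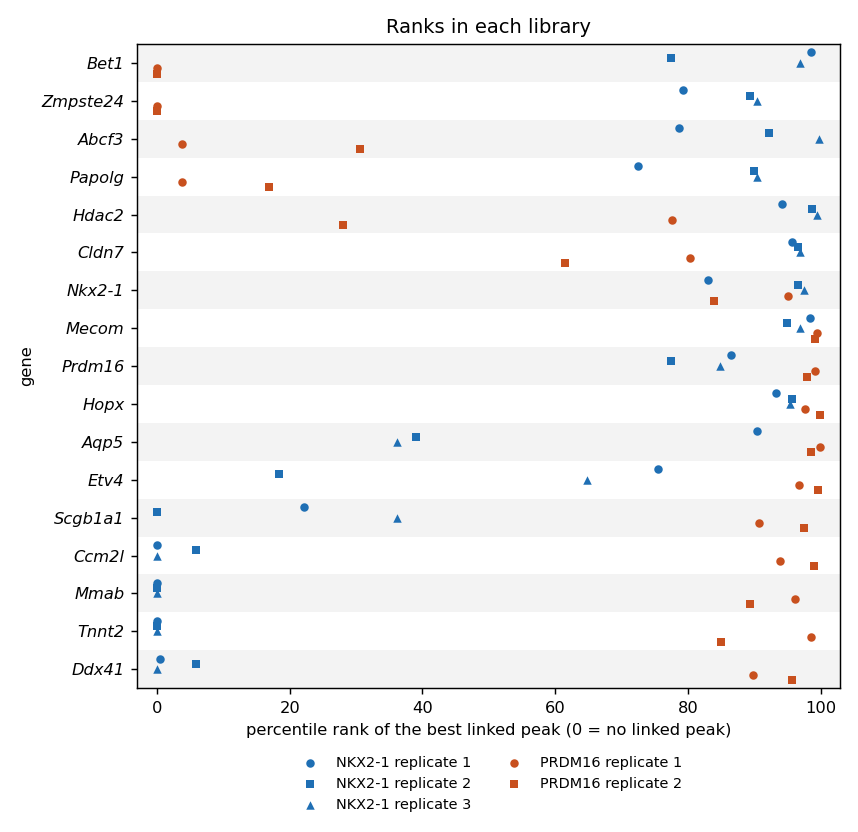
Percentile rank of the best linked peak in each library for 17 genes. Blue symbols are the 3 NKX2-1 libraries and orange symbols the 2 PRDM16 libraries, and 0 means no linked peak. Bet1 and Zmpste24 have both PRDM16 libraries at 0, Nkx2-1, Mecom and Hopx have every library above 80, and Mmab and Tnnt2 have all 3 NKX2-1 libraries at 0.

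The only members of the 15 lists in either class were genes of other cell types, all high in PRDM16 and low in NKX2-1. Of 25 airway secretory, ciliated, basal and neuroendocrine genes, 2 fell in that class, Scgb1a1 among them, and of 20 neural genes 1 did, Lhx5. The class held 1.79% of all genes, and counts this small are given as a description of these genes. Scgb1a1, the secretoglobin of club cells, ranked 22.2, 0 and 36.2 against 90.7 and 97.5, a difference of -74.6 (SE 13.5). Here both factors had peaks at one place, with midpoints 1360 to 2092 bases outside the gene. The PRDM16 peaks there had fold enrichments of 7.22 and 9.33, and NKX2-1 replicates 1 and 3 had overlapping peaks of 3.03 and 2.40. NKX2-1 thus had a peak there in 2 of 3 libraries, at low rank. H3K4me3 lay at an end of Scgb1a1 in 0 libraries. Lhx5, a LIM homeodomain factor of neurons, ranked 0, 16.3 and 36.2 against 95.8 and 80.9.

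In the airway list PRDM16 ranked above without overlap in 9 of 25 genes (36.0%, against 18.9% of all genes), and in 6 of 22 with lists of equal length, against 11.2%. NKX2-1 was above in 0 under both. The neural list had 7 of 20 (35.0%) and 6 of 19, the latter without Nkx6-1 and with Gad1, Gbx2, Lhx5, Neurog1, Slc17a7 and Syt1. Of 30 mesenchymal and endothelial genes, PRDM16 was above in 8 (26.7%) and, with lists of equal length, in 3 of 29, under the 11.2% of all genes. Col3a1, a fibrillar collagen, stood on the NKX2-1 side with 36.8, 77.4 and 59.4 against 0 and 0. Of 14 immune genes 4 had PRDM16 above (28.6%), and 1 of 12, Laptm5, with lists of equal length. Ranks from other cells of the sorted fraction cannot be told apart from those of epithelial cells.

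Genes of the gastric and liver programmes that NKX2-1 is known to restrain in lung tumours ranked below the median of all genes in every library. Their median ranks were 0, 39.1 and 59.4 in NKX2-1 and 71.3 and 49.5 in PRDM16, against 70.5, 68.0, 75.1, 85.3 and 73.3 over all genes. NKX2-1 was above in 0 of 19 genes and PRDM16 in 5 (26.3%, against 18.9% of all genes), or 3 of 17 with lists of equal length (against 11.2%), namely Vil1, Apoa1 and Gkn3. Vil1, the microvillus protein villin, ranked 0, 0 and 5.73 against 87.7 and 49.5. Brown fat genes, of which PRDM16 controls several in fat, did not stand apart. In 3 of 15 PRDM16 was above, Ppargc1a, Cebpb and Pparg, a share close to the 18.9% of all genes, and NKX2-1 in 0. With lists of equal length PRDM16 was above in 2 of 13, against 11.2% of all genes. NKX2-1 was then above in 2 of 13, Esrra and Esrrg, against 11.5%. Pparg, the nuclear receptor of fat cells, ranked 79.9, 92.3 and 93.5 against 95.8 and 94.3.

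Ribosomal and housekeeping genes were the only one of the 15 lists with a median difference above 0, at 2.53, and it was -0.83 with shared ends. NKX2-1 was above in Rpl4, Eef2 and Tbp and PRDM16 in 0 of 22. With lists of equal length NKX2-1 was above in 5 of 21, against 11.5% of all genes. Under shared ends only Tbp kept NKX2-1 above. Rpl4, a large subunit ribosomal protein, ranked 65.7, 39.1 and 97.6 against 0 and 0, and with shared ends 94.2, 39.1 and 97.6 against 97.3 and 62.8.

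**Figure D3:**
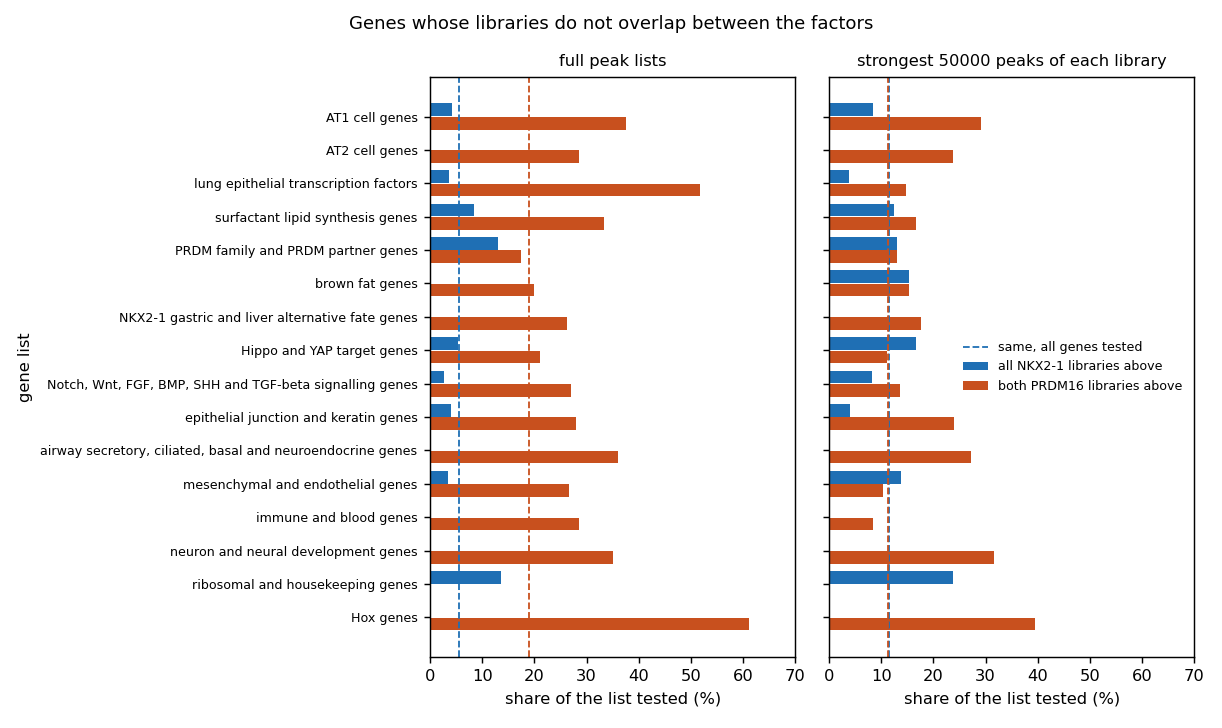
Share of each gene list in which all NKX2-1 libraries ranked above both PRDM16 libraries (blue) or below both (orange), with full peak lists (left) and the strongest 50000 peaks of each library (right). Dashed lines give the same shares over all genes, 5.62% and 18.9% at left and 11.5% and 11.2% at right. The Hox genes, which were listed after their values were seen, reach 61.1% at left.

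The 24 genes of largest difference rested largely on how a peak was given to adjoining genes. Creb3, a membrane-bound bZIP factor, ranked 96.3, 98.3 and 99.6 in NKX2-1 and 0 and 0 in PRDM16. Another gene end lies 75 bases away, and PRDM16 peaks overlapped the same place but were nearer to that end. With shared ends Creb3 ranked 99.1 and 99.3 in PRDM16, and its difference went from 98.1 to -1.15. Sdf4, a Golgi calcium-binding protein, and B3galt6, a galactosyltransferase of proteoglycan synthesis, are neighbours on chromosome 4. They stood at opposite ends of the contrast, with 96.4 and -96.7, and had the same difference of -0.48 once they shared their peaks. Brd9, a subunit of a chromatin remodeller, went from 92.9 to 39.7, and Ints11, the nuclease of the Integrator complex, from -90.9 to -3.73.

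**Figure D4:**
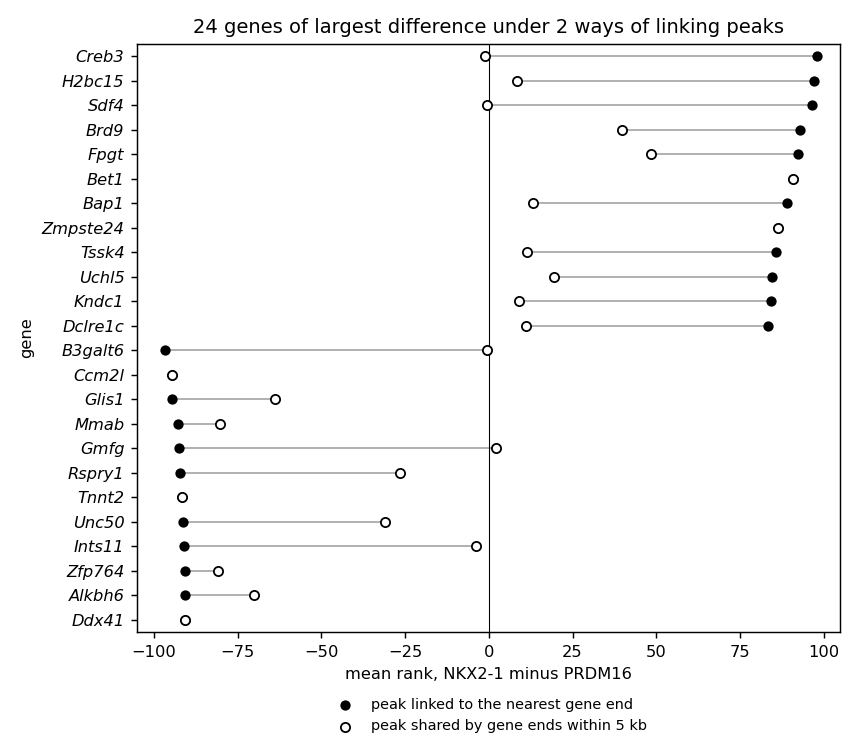
Difference of mean rank, NKX2-1 minus PRDM16, for the 12 genes of highest and 12 of lowest difference, with each peak linked to its nearest gene end only (filled) or shared by every gene with an end within 5 kb (open). Creb3, Sdf4, B3galt6, Gmfg and Ints11 move close to 0, while Bet1, Zmpste24, Ccm2l, Tnnt2 and Ddx41 do not move.

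A gene end within 1 kb of their own had 28 of the 48 genes high in NKX2-1 (58.3%) and 110 of the 324 high in PRDM16 (34.0%), against 26.5% of all genes compared. With shared ends the rule chose 21 and 268 genes (0.113% and 1.44% of 18585), of which 18 and 210 were also chosen by the nearest end. These 18 and 210 genes are described below. Just inside and outside the limit of 75 stood Slc25a16 (mean rank 75.3) and Grwd1 (74.9) for NKX2-1, and Gsdma2 (75.03) and Ttc5 (74.9) for PRDM16. The classes were 0.266% and 1.79% of the genes compared.

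The 18 genes high in NKX2-1 under both links were Abcf3, Actr6, Bet1, Col19a1, Dmac1, Gcfc2, Gm14305, Gm14434, Nacad, Nat2, Papolg, Phactr3, Sin3b, Tnfrsf11b, Vmn2r120, Zfp874b, Zfp994 and Zmpste24. None was a member of the 15 gene lists. Bet1, a SNARE of transport from the endoplasmic reticulum to the Golgi (chr6:4076899-4086998), ranked 98.5, 77.4 and 96.9 against 0 and 0, a difference of 90.9 (SE 10.4, limma adjusted p = 0.142). Both PRDM16 libraries lacked a linked peak, and all 3 NKX2-1 libraries were high. Its replicate 1 and 3 peaks overlapped each other at the gene end under H3K4me3, with fold enrichments of 13.4 and 5.21, while the replicate 2 peak lay 20491 bases outside with a −log10 q of 0.69. A peak at this gene end was thus in 2 of 3 NKX2-1 libraries, and only that of replicate 1 reached into the printed window.

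Zmpste24, the protease that matures lamin A (chr4:121059237-121098249), ranked 79.3, 89.3 and 90.4 against 0 and 0. Its 3 NKX2-1 peaks overlapped one another inside the gene, 87, 273 and 347 bases from its end, and had −log10 q of 5.6, 1.41 and 1.69. Abcf3, an ABC-type ATPase of the translation machinery, ranked 78.7, 92.3 and 99.7 against 3.71 and 30.6, and PRDM16 replicate 2 had a weaker peak, of fold enrichment 2.61, over the same site. Papolg, a poly(A) polymerase, ranked 72.5, 89.9 and 90.4 against 3.71 and 16.8. Sin3b, a corepressor scaffold, ranked 62.7, 92.3 and 85.8 against 0 and 33.5. Tnfrsf11b, the decoy receptor osteoprotegerin, ranked 75.6, 92.3 and 90.4 against 47.1 and 0, but its replicate 2 peak lay 48221 bases from the gene. In these genes no PRDM16 library reached the lowest NKX2-1 library.

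Of the best NKX2-1 peaks of the 18 genes, 17, 3 and 5 reached a −log10 q of at least 2 in replicates 1, 2 and 3 (94.4%, 16.7% and 27.8%). Over all genes with a linked peak the shares were 85.0%, 16.8% and 24.5%, so few confident peaks in replicates 2 and 3 were common to all genes. H3K4me3 lay at an end of 12 of the 18 (66.7%) in each of the 3 libraries, close to the 67.2%, 64.1% and 62.3% of all genes. PRDM3, with 1 library, had a linked peak at 9 of them (50.0%), against 76.2% of all genes. Of the best NKX2-1 peaks of the 18 genes, 8, 6 and 8 in replicates 1, 2 and 3 were overlapped by a peak of some PRDM16 library. The matching share over all genes was not counted. With NKX2-1 replicate 1 alone 10 of the 18 were chosen again, and 8 both so and with lists of equal length: Abcf3, Actr6, Bet1, Gm14305, Nat2, Tnfrsf11b, Vmn2r120 and Zmpste24.

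The 210 genes high in PRDM16 under both links are described by examples, some of them named after their values were seen. Tnnt2, cardiac troponin T (chr1:135836315-135852268), ranked 0, 0 and 0 in NKX2-1 and 98.5 and 85.0 in PRDM16, a difference of -91.8 (SE 8.66, limma adjusted p = 0.129). The 2 PRDM16 peaks lay 4844 bases inside and 5072 bases outside the gene, and none overlapped its promoter window. Ccm2l, a relative of the vascular adaptor CCM2 (chr2:153065937-153081735), ranked 0, 5.88 and 0 against 93.9 and 99.1. Its PRDM16 peaks had fold enrichments of 8.62 and 11.7 and lay outside H3K4me3.

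Mmab, an enzyme of vitamin B12 metabolism (chr5:114431034-114444073), and Ddx41, an RNA helicase (chr13:55530410-55536658), carried PRDM16 peaks over the promoters printed above. Mmab ranked 0, 0 and 0 against 96.2 and 89.4, yet NKX2-1 replicate 1 had the peak of fold enrichment 3.38 over its window, which was linked to a gene end 191 bases away. With shared ends Mmab ranked 32.1, 5.88 and 0 in NKX2-1. Ddx41 ranked 0.487, 5.88 and 0 against 89.8 and 95.7, with PRDM16 −log10 q of 12.7 and 11.3. H3K4me3 lay at an end of both genes in all 3 libraries. NKX2-1 was weak there in replicate 1 and weak or without a peak in the others.

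Further examples from this class were the transcription factors Foxc2, Foxe1, Pitx1 and Prdm12 and the ligand genes Wnt3, Ihh and Fgf4. With lists of equal length Foxc2 stayed in the class and the other six left it. Foxc2 ranked 36.8, 0 and 36.2 against 96.7 and 73.4. Ihh, which encodes a hedgehog ligand, ranked 50.0, 0 and 0 against 92.3 and 73.3. Fgf4 ranked 36.8, 0 and 0 against 80.3 and 90.3. At these 3 genes NKX2-1 replicate 1 had a low-ranked peak and replicate 2 none. Genes of muscle proteins in the class included, besides Tnnt2, Myl3, Myh3 and Mb, which left it with lists of equal length. Myh3, an embryonic myosin heavy chain, ranked 22.2, 0 and 36.2 against 98.0 and 65.9.

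The best PRDM16 peaks of the 210 genes reached a −log10 q of at least 2 in 204 and 197 genes (97.1% and 93.8%), against 77.6% and 73.8% of all genes with a linked peak. The rule chose these peaks for their fold enrichment, so nothing is read from that. H3K4me3 lay at an end of 102, 81 and 73 of the 210 (48.6%, 38.6% and 34.8%) in the 3 libraries, below the 67.2%, 64.1% and 62.3% of all genes. The genes were short, with a median of 9344 bases against 21187 in all. Their median number of linked peaks was 1, 0 and 0 in the NKX2-1 libraries, against 2, 2 and 2 in all genes. In the PRDM16 libraries it was 3 and 2, as in all genes. Whether their length, H3K4me3 and PRDM3 ranks go with the few NKX2-1 peaks was not tested. NKX2-1, low here by the rule, still had peaks at some places of the best PRDM16 peaks. Of the best peaks in PRDM16 replicates 1 and 2, 115 and 104 were overlapped by a peak of some NKX2-1 library. NKX2-1 replicate 1 overlapped 105 and 92 of them, replicate 2 overlapped 7 and 7, and replicate 3 overlapped 13 and 15. The matching share over all genes compared was not counted, so these counts are a description. PRDM3 had a linked peak at 142 (67.6%), with a median rank of 34.5 against 61.3 in all genes.

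The Hox genes are the clustered homeodomain genes that pattern the body axis. With full lists and with lists of equal length, they had the highest share on the PRDM16 side of the groups listed. They were listed after their values were seen, so their count is a description. Of 39 on these chromosomes 36 were compared, and 20, 12 and 13 of them had a linked peak in the NKX2-1 libraries against 33 and 35 in the PRDM16 libraries. Median ranks were 14.1, 0 and 0 in NKX2-1 and 62.0 and 79.5 in PRDM16. Both PRDM16 libraries were above in 22 of 36 (61.1%, against 18.9% of all genes), and NKX2-1 in 0. With lists of equal length PRDM16 was above in 13 of 33, against 11.2%, and with NKX2-1 replicate 1 alone in 28 of 36, against 41.3%. In that last setting the transcription factors of lung epithelium had a higher share, 22 of 27, and the AT1 genes had 17 of 24. In 10 the mean ranks met the limits of the class, and of these Hoxa13 and Hoxd13 met them with lists of equal length. H3K4me3 lay at an end in all 3 libraries for 1 of the 36, Hoxb2.

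Hoxa9 (chr6:52223097-52227370) ranked 0, 0 and 0 against 91.5 and 79.5, a difference of -85.5 (SE 8.46, limma adjusted p = 0.129). Its PRDM16 peaks had fold enrichments of 7.68 and 4.67 and lay outside H3K4me3, and NKX2-1 had no linked peak in any library. Hoxa13 ranked 48.0, 0 and 0 against 96.2 and 94.7, and Hoxd13 67.4, 0 and 0 against 95.8 and 97.5. Hoxb8 ranked 0, 0 and 36.2 against 73.8 and 83.1. All 4 clusters were represented among the 10 genes of the class, which also held Hoxb3, Hoxb6, Hoxc5, Hoxc8, Hoxc10 and Hoxd11. Neighbouring Hox genes can share a peak, so these genes are not independent of each other. Hoxa6 went the other way in replicate 1, at 71.7, where its PRDM16 ranks were 0 and 60.3. When neighbouring gene ends shared a peak, both PRDM16 libraries ranked above every NKX2-1 library at Hoxa6.

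**Figure D5:**
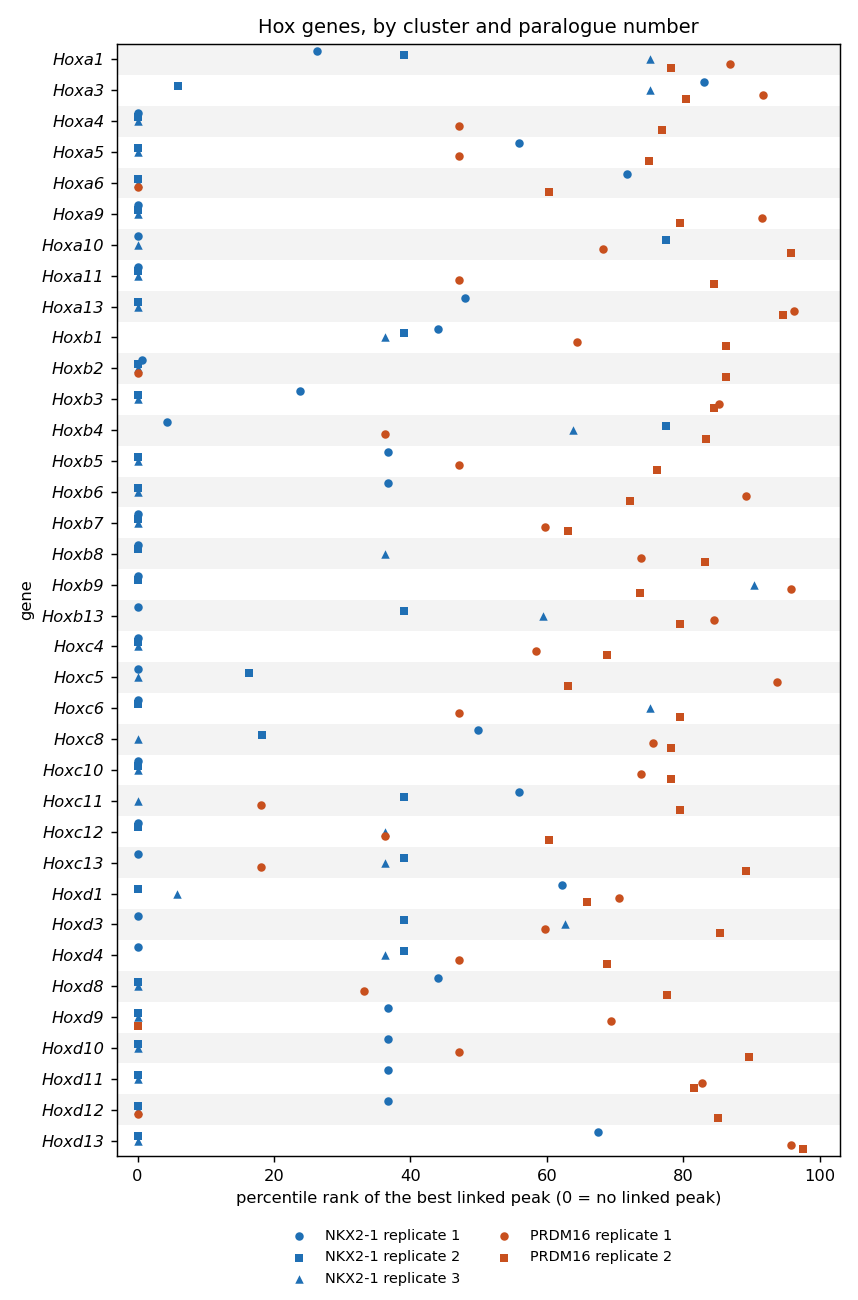
Percentile rank of the best linked peak in each library for the 36 Hox genes compared, ordered by cluster and paralogue number. Blue symbols are NKX2-1 and orange symbols PRDM16 libraries, and 0 means no linked peak. Most blue symbols lie at 0 or below 60, and most orange symbols above 60.

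With NKX2-1 replicate 1 alone against PRDM16, the rule chose 105 and 521 genes (0.581% and 2.89%), of which 31 and 168 were in the classes from all 5 libraries. Replicate 1 ranked above both PRDM16 libraries in 3251 genes (18%) and below both in 7459 (41.3%). With shared ends the classes held 44 and 390 genes (0.237% and 2.1%). The largest differences were again mostly at adjoining gene ends. Cdca3, Ncapd2, Erh and Slc25a23 stood at the PRDM16 end and Brd9, Cinp, Acbd7 and Vps35 at the NKX2-1 end, and Bet1 and Col6a4 kept their difference with shared ends. Col6a4, a collagen VI chain, ranked 0 in NKX2-1 replicate 1 and 97.0 and 98.8 in PRDM16, while NKX2-1 replicates 2 and 3 had 39.1 and 36.2. Of the 210 genes 107 were chosen again with replicate 1, and 34 both so and with lists of equal length. Among these were Tnnt2, Ccm2l, Mmab, Ddx41, Alkbh6, Zfp764, Scgb1a1, Lhx5, Blnk, Tyms and Cacna1d.

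Without NKX2-1 replicate 1, the classes grew to 316 and 708 genes (1.75% and 3.92%), and without PRDM16 replicate 1 the class high in NKX2-1 grew to 244 (1.35%). Of the 18 and 210 genes, 17 and 194 remained without NKX2-1 replicate 1, and 11 and 146 without PRDM16 replicate 1. Other settings kept fewer. With lists of 50000 peaks 15 and 74 remained, and with lists of 20000 peaks 1 and 9. Keeping only peaks whose −log10 q reached 2 left 0 and 31. It was 3 and 21 with genes ranked again, and 2 and 11 among genes with a peak in all 5 libraries. Peaks outside H3K4me3 alone kept 3 and 111, peaks within 1 kb of a gene end 2 and 18, and limits of 90 and 10 kept 1 and 9. Membership of the classes thus depended on these settings. A linked peak stood in all 3 NKX2-1 libraries and in no PRDM16 library at 91 genes, and in both PRDM16 libraries and no NKX2-1 library at 214.

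The position of all peaks around genes was also compared between libraries. Peaks within 1 kb of a gene end made up 17.1% ± 5.26 (SD, n = 3) in NKX2-1, compared with 14.5% ± 2.14 (SD, n = 2) in PRDM16, with an exact two-sided permutation p = 0.8. Peaks over H3K4me3 were 24.2% ± 9.66 and 20.4% ± 3.39, with an exact permutation p = 0.8. With 3 against 2 libraries the smallest p this test can give is 0.2, so these values do not show that the factors lay alike. NKX2-1 replicate 1 was the highest of the 3 in both measures. The order changed when only peaks whose −log10 q reached 2 were kept. Peaks within 1 kb of a gene end were then 32.3%, 63.3% and 62.7% in NKX2-1 and 27.7% and 26.04% in PRDM16, the groups did not overlap, and the exact permutation p was 0.2. The lists of NKX2-1 replicates 2 and 3 held 2849 and 4649 such peaks, against 28735 in replicate 1.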

How the data were processed

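Peak lists of 3 NKX2-1, 2 PRDM16, 1 PRDM3 and 3 H3K4me3 libraries were used. The 3 IgG samples were not analysed here. Per the submitters' processing notes, the tools were Trimmomatic, Bowtie2, MACS2 and HOMER on mm10. Each deposited list, 1 per sample, gives the authors' fold enrichment of each peak (a ratio), its −log10 p and −log10 q, a score and the offset of the summit. The use of a control library in calling peaks is not stated. The deposited score was not used.

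Genes came from RefSeq (GRCm38.p6), in a table without strand, so a peak was linked by its midpoint to the nearest of either gene end within 50 kb. Fold enrichments were used only as percentile ranks within a library (ties averaged), because their scale differs between libraries. The filter was a linked peak in at least 2 of the 5 libraries. The ranks were tested with limma 3.58.1 (R 4.3.3, Benjamini-Hochberg adjustment over all genes compared) and tested on simulated data; library measures had exact permutation tests. Adjusted over the 4 library measures, p was 0.8 for each. Python 3.11.15, numpy 2.4.6, pandas 2.3.3, scipy 1.17.1, statsmodels 0.14.6 and matplotlib 3.10.9 were used.

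The contrast, the 15 gene lists and the tests were chosen with earlier results of these data known. Named by rule were the 12 genes of highest and 12 of lowest difference without overlap, the member of highest and of lowest difference in each list, Nkx2-1, Prdm16 and Mecom, and the 6 at each end with NKX2-1 replicate 1 alone, leaving out receptor families and clone names. A few of these and other genes are not reported here. All other genes, the Hox list and the printed promoters were chosen after their values were seen. 

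Alternatives were leaving out each library, a replicate block, no filter or a peak in all 5 libraries, ranking by −log10 p, the strongest 50000 or 20000 peaks, a −log10 q of at least 2, a link within 10 kb or from the summit, ranking genes again, peaks outside H3K4me3 or within 1 kb of a gene end, and limits of 90 and 10. Sharing a peak among gene ends within 5 kb was added after seeing the data.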

Additional observations from a re-analysis of the deposited data

How the results depend on the processing

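The count of genes called by limma was 0 in both directions under every alternative, with smallest adjusted p of 0.0901 when ranked by −log10 p. The classes moved more. Against 48 genes high in NKX2-1 and 324 high in PRDM16, there were 105 and 521 with NKX2-1 replicate 1 alone, 7 and 15 among genes with a peak in all 5 libraries, 138 and 208 with 50000 peaks each, 226 and 189 with 20000 each, 16 and 1085 with a −log10 q of at least 2, 28 and 489 outside H3K4me3, and 9 and 18 with limits of 90 and 10. Sharing peaks among gene ends gave 21 high in NKX2-1, and ranking genes again gave 58 high in PRDM16. Leaving out each library gave 54 to 316 and 319 to 708. In each case the cause was not tested.

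Differences between libraries changed sign. Leaving out each library, NKX2-1 minus PRDM16 ran from -0.428 to 4.30 percentage points for peaks near a gene end, from -1.74 to 6.78 for peaks over H3K4me3, and from -1918 to 84.7 genes with a linked peak. With 20000 peaks each, the latter 2 were -2.07 and 168. Of 320 values of list medians 61 moved and 13 changed sign. Of 1222 values of named genes 319 moved and 65 changed sign. Of these sign changes, 11 came with shared gene ends and 17 with shared gene ends and NKX2-1 replicate 1 alone.

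Deviations from the group means of like-numbered NKX2-1 and PRDM16 libraries had Pearson r of 0.0469 and 0.0272 across genes. The deviations of the 2 PRDM16 libraries mirror each other, and these libraries also differ in antibody. This check therefore cannot decide whether the replicate numbers pair the libraries. With the replicate block limma called 0 genes in both directions, and 148 and 1005 at an unadjusted p under 0.05. Only 2 PRDM16 libraries and weak NKX2-1 replicates 2 and 3 limit all ranks, and a rank says nothing of absolute occupancy.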
